A study of Drosophila melanogaster with 3 samples.

Results

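The genes described here encode the proteins of the mitochondrial ribosome and of respiratory complex I in Drosophila melanogaster. They were chosen by symbol, as the protein-coding genes of the nuclear chromosomes whose symbol starts with mRpL, mRpS or ND-, which gave 113 of 13945 genes. Of them, 73 encode mitochondrial ribosomal proteins (47 of the large and 26 of the small subunit) and 40 belong to complex I. Binding of Combgap near them was taken from chromatin immunoprecipitation and sequencing (ChIP-seq) in 3 biological replicates of 1 group: whole embryos of mixed sex, 0 to 24 h old, of a transgenic line in which cg, the gene for Combgap, is fused at its C-terminal end to green fluorescent protein (GFP), precipitated with an antibody against GFP. There was no second genotype, stage or treatment, so every comparison below is between genes within the same embryos, and each peak averages over all embryonic tissues. All replicates share 1 control alignment, and the sources used here do not say whether the transgene adds copies of the cg locus.

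The mitochondrial ribosome makes the few respiratory proteins encoded by mitochondrial DNA, while its own proteins come from nuclear genes and are imported. Complex I oxidises NADH and passes the electrons to ubiquinone at the entry of the respiratory chain, and it joins nuclear-encoded subunits to some made on that ribosome. Combgap is a zinc-finger protein that recognises GT-rich DNA and is known in flies as a factor that helps bring Polycomb proteins to their target elements.

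Combgap summits lay near about as large a share of the mitochondrial ribosomal protein genes as of all genes, and near few complex I genes. A gene was counted when the summit of a peak from the thresholded list, which keeps peaks by their irreproducible discovery rate (IDR), lay within 1 kb of one of its transcription start sites (TSSs). This held for 20 of the 113 genes (17.7%, exact binomial 95% interval 11.2 to 26%), against 22.9% of all protein-coding genes (3192 of 13945). Mitochondrial ribosomal protein genes had a summit in 17 of 73 cases (23.3%, interval 14.2 to 34.6%) and complex I genes in 3 of 40 (7.5%, interval 1.57 to 20.4%). The cytosolic ribosomal protein genes, chosen in the same way by the prefixes RpL and RpS, stood at 21 of 92 (22.8%). The prefixes also take in genes named only as like a ribosomal protein gene, and RpLP0-like and RpS28-like are among the 21. Within the mitochondrial ribosome, 9 of 26 small-subunit genes (34.6%, interval 17.2 to 55.7%) and 8 of 47 large-subunit genes (17%, interval 7.65 to 30.8%) had a summit, and these intervals overlap widely. The intervals cover counting error over genes, which are not replicates, and no test was made between the groups.

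Within 500 bp the shares of both groups lay below that of all genes. At 1 kb this held for complex I only, since the mitochondrial ribosome stood at 23.3%, against 22.9%. Of the highest summits at the 20 genes, the median lay 528 bp from the gene's own TSS, against a median of 255 bp over all 3192 genes with a summit. Within 500 bp only 10 of the 113 genes were left (8.85%), against 18.3% of all genes, and these were 9 mitochondrial ribosomal protein genes (12.3%) and 1 complex I gene, ND-15 (2.5%). At 5 kb the shares met, with 47 genes (41.6%), against 41.6% of all genes.

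**Figure D1:**
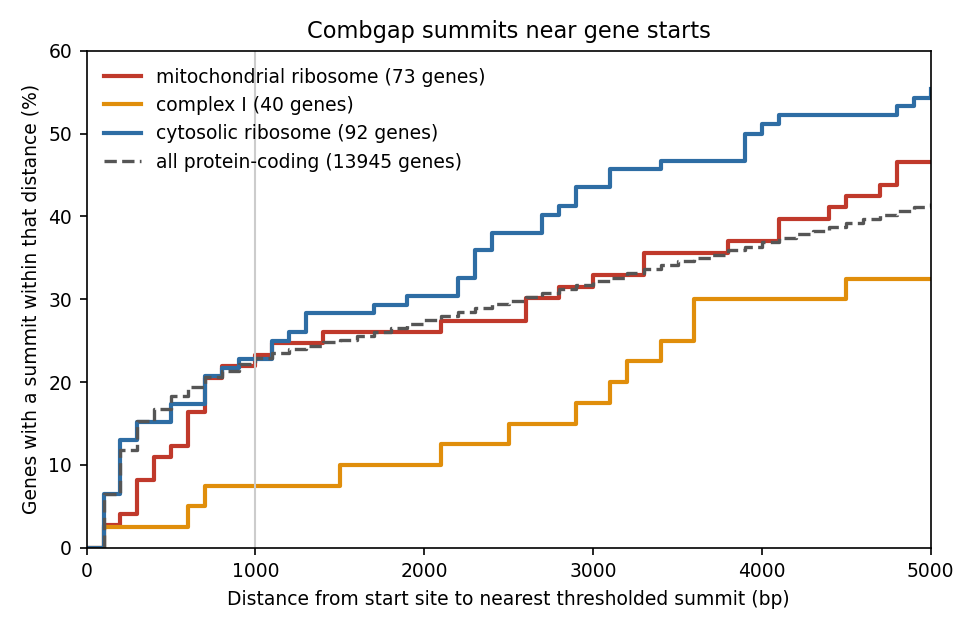
Share of genes (%) with a thresholded summit within a given distance of a start site (bp, read every 100 bp), for the mitochondrial ribosome, complex I, the cytosolic ribosome and all protein-coding genes. The grey line marks 1000 bp, where the mitochondrial ribosome stood at 23.3%, complex I at 7.5% and all genes at 22.9%. At 500 bp the first 2 stood at 12.3% and 2.5%, below the 18.3% of all genes.

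Most of the 20 genes had the summit closer to the start of a neighbour than to their own. The highest summit lay nearest to another protein-coding gene in 15 of the 20, and in 14 of these 15 the same held for the summit in each of the 3 replicate lists. The positions of these summits ranged over a median of 37.5 bp between replicates. The range was at most 69 bp except at mRpS23, where it was 237 bp because the replicate 3 peak that holds the summit has its own summit at a second, weaker site. Genes were then counted only where their TSS was the nearest one to a summit. This left 5 of the 113 genes (4.42%, interval 1.45 to 10%), namely mRpS14, mRpL16, mRpL49, ND-15 and ND-ACP, against 18.3% of all genes (2555 of 13945). The mitochondrial ribosome kept 3 of its 17 genes, or 17.6%. The cytosolic ribosome kept 14 of 21 (66.7%), and all protein-coding genes kept 80% of theirs.

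These genes sit in crowded surroundings, so they were also set beside genes placed in the same way. A TSS of another protein-coding gene lay within 1 kb for 84 of the 113 genes (74.3%), against 42.9% of all genes, and a divergent one, whose gene runs the other way, for 78 (69%), against 33.2%. Among genes with such a divergent partner, 17 of the 78 had a summit within 1 kb (21.8%), against 31.2% of all genes so placed. By group this was 15 of 57 mitochondrial ribosomal protein genes (26.3%) and 2 of 21 complex I genes (9.52%). The TSS was the nearest one to a summit for 3 of these 78 (3.85%), against 19.3% of all genes with a divergent partner. Of the 29 genes with no other TSS within 1 kb, 2 had a summit (6.9%), against 17.8% of all such genes. A gene with more start sites has more chances of a summit. Members with 1 TSS stood at 16 of 89 (18%), against 15% of all genes with 1 TSS. Members with 2 or 3 TSSs stood at 4 of 24 (16.7%), against 40.3% of all such genes. These shares pool unlike groups. With 1 TSS the mitochondrial ribosome stood at 15 of 67 (22.4%) and complex I at 1 of 22 (4.55%). With 2 or 3 TSSs they stood at 2 of 6 (33.3%) and 2 of 18 (11.1%).

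**Figure D2:**
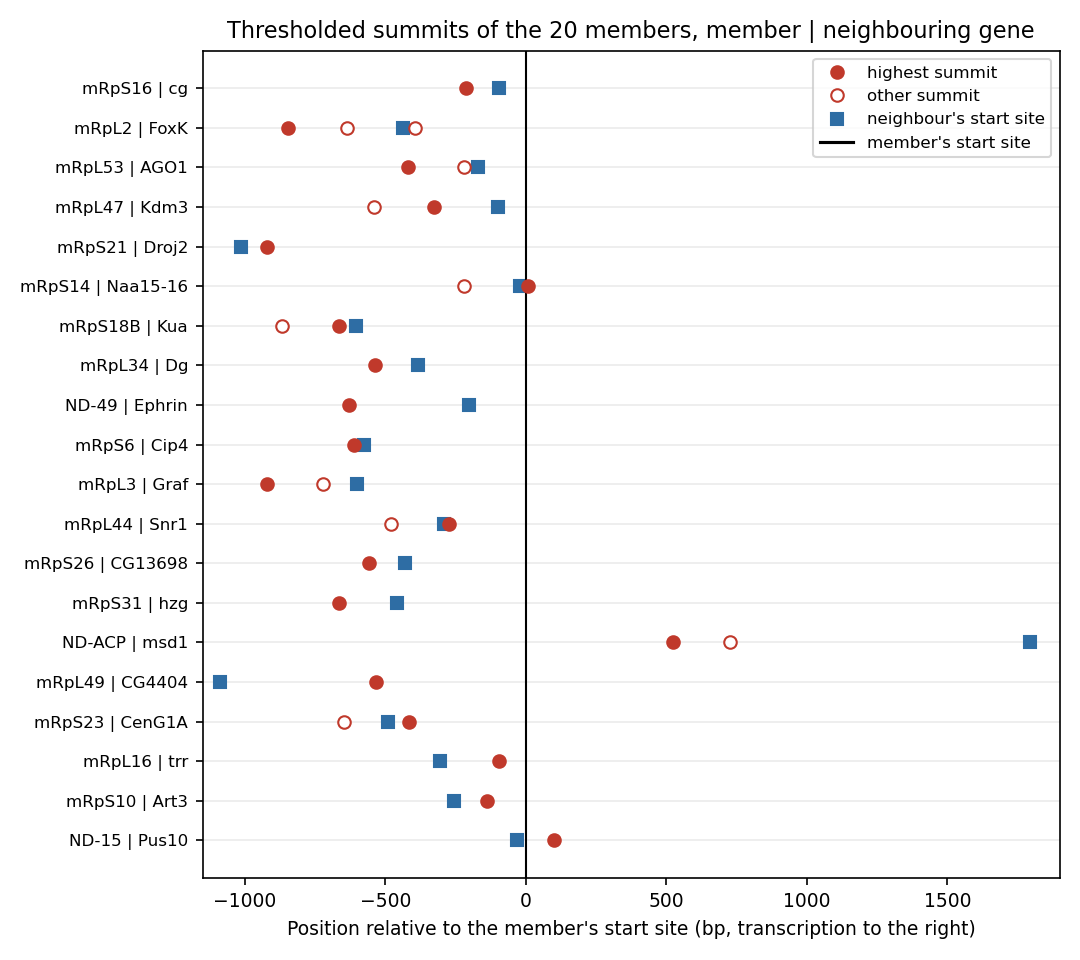
Positions of the 30 thresholded summits at the 20 genes, in bp from the gene's start site at 0 with transcription running to the right. Rows run from the highest rank down, filled circles are highest summits, open circles other summits, and squares mark the start site of the named neighbour that lies nearest to the highest summit. Of the 30 summits, 26 lie to the left of 0, and 24 are closer to the start site of another gene than to 0.

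The DNA under several of these summits is shown here because GT-rich elements are the sequences that Combgap is known to bind. The following stretches come from peaks that lay nearest to the neighbour's start, and capitals mark runs of at least 6 bp in which G and T (or, on the other strand, A and C) alternate. All are the plus strand of the release 6 reference assembly of RefSeq (dm6), 5′ to 3′, with positions counted from 1. Each stretch begins within 100 bp of the gene's highest summit, and stretches in untranslated regions (UTRs) were limited to 30 bases.
mRpL2 (chr3L:11119928-11120048): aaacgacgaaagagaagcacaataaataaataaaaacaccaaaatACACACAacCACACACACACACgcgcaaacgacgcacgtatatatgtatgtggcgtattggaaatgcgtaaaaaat
mRpL47 (chr3R:9516175-9516295): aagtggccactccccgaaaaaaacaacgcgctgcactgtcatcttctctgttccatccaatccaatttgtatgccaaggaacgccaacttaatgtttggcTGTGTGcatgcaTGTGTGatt
mRpS18B (chr2L:20097920-20097949): tgcgtgcGTGTGTGTGTGTGTGTGagtgag
mRpS6 (chr3L:4363939-4363968): cgacatttgCACACACACACAagCACACAg
mRpS26 (chr3L:18106003-18106032): taaacacgaACACACACACACtttcaaggc
mRpS31 (chr3L:16004556-16004585): gacacagcactCACACACACtctcgcacgc
ND-49 (chr4:572145-572174): tctcctcggagaGTGTGTcgtcactgtgta

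The longest of these runs, 17 bp, belongs to the peak of mRpS18B and Kua, and the peak of mRpL2 and FoxK holds one of 13 bp. At mRpL47 the runs are of 6 bp and read TGTGTG, so GTGTGT itself is not there. The next stretches come from the genes whose own TSS was nearest to the summit, with mRpS10 as the gene at which the replicates disagreed. At mRpS14 the stretch itself lies nearer to the start of the neighbour, Naa15-16. The capitals in mRpL16 mark the E-box CACGTG, since no run of 6 bp was found there, and mRpS10 has neither. CACGTG lay within 100 bp of 3 of the 30 member summits (10%, interval 2.11 to 26.5%), against 3.8% of all start-site summits.
mRpS14 (chrX:19480303-19480332): tgccagtgtggGTGTGTGTGgtcgtctcac
mRpL49 (chrX:12906528-12906648): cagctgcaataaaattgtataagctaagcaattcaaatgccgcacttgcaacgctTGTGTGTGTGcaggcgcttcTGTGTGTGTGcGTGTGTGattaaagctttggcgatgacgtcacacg
ND-ACP (chr3L:1330464-1330584): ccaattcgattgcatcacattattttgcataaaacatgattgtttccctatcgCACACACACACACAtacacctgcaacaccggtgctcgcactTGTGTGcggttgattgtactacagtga
ND-15 (chr2L:155418-155447): caacaatttaagGTGTGTGatcaggatata
mRpL16 (chrX:1890101-1890221): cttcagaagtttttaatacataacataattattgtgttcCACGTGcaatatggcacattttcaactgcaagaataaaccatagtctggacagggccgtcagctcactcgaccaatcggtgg
mRpS10 (chr3R:15229466-15229586): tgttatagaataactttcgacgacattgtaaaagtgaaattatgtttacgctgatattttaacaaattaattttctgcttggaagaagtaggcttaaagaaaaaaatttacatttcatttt

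Over the 30 summits, GTGTGT on either strand lay within 100 bp of 19 (63.3%, interval 43.9 to 80.1%), against 15 of 29 at cytosolic ribosomal protein genes (51.7%) and 59.7% of the 4182 start-site summits of all genes. The share at these genes was thus close to that of all start-site summits. At the highest summit, 15 of the 20 genes had GTGTGT, and mRpL47, mRpL34, mRpL44, mRpL16 and mRpS10 did not. The letters GAGAG, bound by GAGA factor, lay at 23.3% of the member summits (interval 9.93 to 42.3%), against 42% of all start-site summits. At the summits of cytosolic ribosomal protein genes they stood at 17.2%, so a low share was not particular to the members. GCCAT, the core bound by Pho, lay at 26.7% of the member summits, against 26.5% of all start-site summits. A match of letters is a description and does not show binding of the named factor.

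Most members with GTGTGT nearby had no thresholded summit within 1 kb, and the same was so for most genes with the letters. The letters lay within 1 kb of a TSS of 72 of the 113 genes (63.7%), against 68.2% of all genes, and 19 of those 72 had a summit (26.4%), against 31.5% of all genes with the letters. Of the 41 genes without them, 1 had a summit (2.44%), namely mRpL47, against 4.49% of all genes without them. In complex I the counts were 3 of 24 with the letters and 0 of 16 without.

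The highest peak at a mitochondrial ribosomal protein gene was the one shared by mRpS16, of the small subunit, with cg itself. It ranked 83 by signal among the 7913 thresholded summits (2R, summit 14173810), and its ranks were 90, 77 and 80 in replicates 1, 2 and 3. The summit lay 214 bp upstream of mRpS16 and 117 bp inside the 5′ UTR of cg, and the closest start sites of these divergent genes are 97 bp apart. Since the line carries a cg transgene, extra copies of this region could change its signal, and that was not tested. The rank of mRpS16 is therefore uncertain.

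Of the large subunit, mRpL2 had the highest summit, at rank 145 (3L, summit 11120000). Its ranks were 147, 180 and 131 in replicates 1, 2 and 3. The summit lay 847 bp upstream of mRpL2 and 411 bp downstream of a start of FoxK, a forkhead transcription factor gene, inside a FoxK intron. Further summits of the same interval ranked 602 and 5851, the last of them 393 bp from mRpL2 and 43 bp from the FoxK start. The gene mRpL53 lies inside AGO1, the gene for an Argonaute protein of the microRNA pathway, and had summits at ranks 239 and 524 (2R, summits 13953774 and 13953974). The higher one ranked 271, 260 and 223 in the replicates, and it lay 421 bp from the start of mRpL53 and 251 bp from that of AGO1. The lower one lay in the 5′ UTR of AGO1, 51 bp from its start and 221 bp from that of mRpL53.

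The summit of mRpL47 ranked 307 (3R, summit 9516235) and lay in an intron of Kdm3, a histone demethylase gene, and of the overlapping CG8176, 327 bp from mRpL47 and 228 bp from Kdm3. Its replicate ranks were 338, 286 and 298. In the small subunit, mRpS21 followed at rank 398 (3R, summit 13382731), with replicate ranks of 388, 459 and 402. That summit lay 922 bp from mRpS21, near the limit of 1 kb, and 91 bp from Droj2, a DnaJ-like chaperone gene. The next, mRpS14 at rank 614 (X, summit 19480230), was the highest-ranking gene whose own TSS was nearest, and its replicate ranks were 625, 604 and 635. The summit lay 8 bp from the start of mRpS14 and 29 bp from that of Naa15-16, which encodes the auxiliary subunit of an N-terminal acetyltransferase. With 21 bp between these starts, the peak covers both, although the summit was nearer to mRpS14 in every replicate. At rank 632, mRpS18B (2L, summit 20097918) had its summit 665 bp upstream and 60 bp inside the 5′ UTR of Kua, with replicate ranks of 641, 536 and 714.

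**Figure D3:**
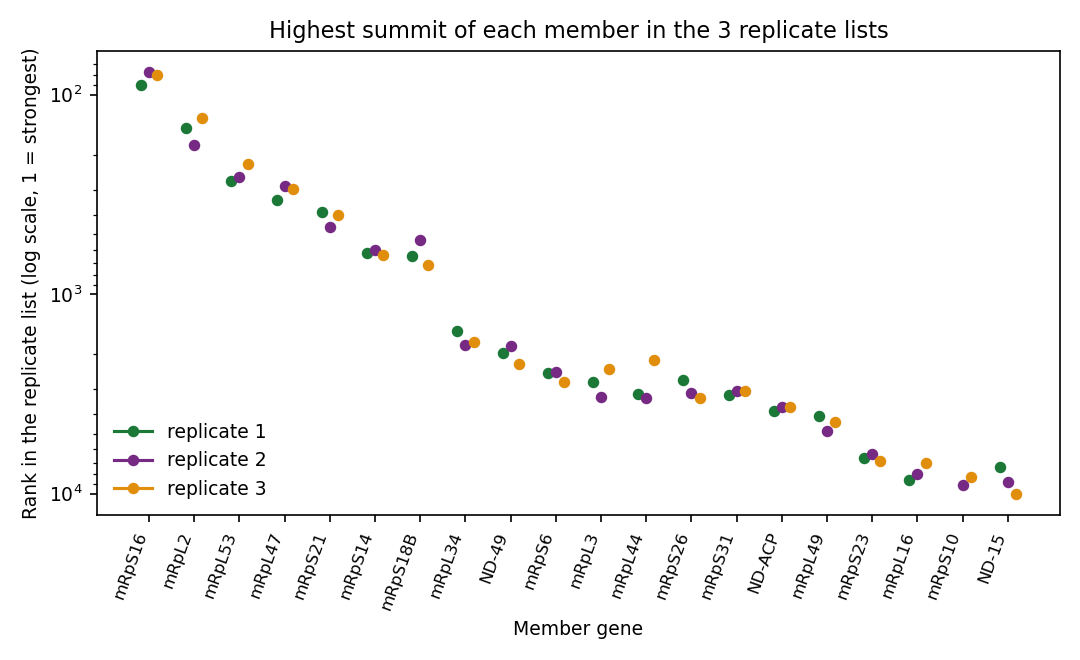
Rank of the highest summit of each of the 20 genes in the peak lists of replicates 1, 2 and 3 (log scale, 1 is the strongest and is at the top), with genes ordered by their rank in the thresholded list. The 7 leading genes, mRpS16 to mRpS18B, stay within the 1000 highest in every replicate, and mRpS10 has no point for replicate 1. The replicate 3 point of mRpS23 is the peak of its second summit.

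These 7 genes, 35% of the 20, were those within the 1000 highest thresholded summits, a level reached by 28.8% of all genes with a summit. The median rank of the 20 was 2522, against 2526 for cytosolic ribosomal protein genes and 2084 for all genes with a summit. Over the 19 genes with a peak in all 3 replicate lists, which leaves out mRpS10, the median was 2480, 2461 and 2231, a mean of 2391 ± 139 (SD, n = 3). Restricting the peaks to those that overlapped one of the 5000 highest of every replicate left 16 genes (14.2%), against 17.2% of all genes, and the 16 were the same in each replicate alone.

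In the middle of the list stood further genes with a divergent neighbour. The summit of mRpL34 ranked 1597 (replicates 1530, 1800 and 1736) and lay 154 bp from the start of Dg, the gene for the adhesion receptor Dystroglycan, and 538 bp from its own. At rank 2463 came mRpS6 (replicates 2480, 2461 and 2771), 37 bp from Cip4, which encodes an F-BAR protein, and 613 bp from its own start. The summit of mRpL3 at rank 2581 (replicates 2772, 3266 and 2388) lay 321 bp from Graf and 920 bp from its own. In all 3 the summit lay in the neighbour's 5′ UTR.

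The summit of mRpL44 ranked 2672 (replicates 3175, 3315 and 2145) and lay 17 bp from Snr1, which encodes a subunit of the Brahma chromatin remodelling complex, and 273 bp from its own start. The genes mRpS26 and mRpS31 came next. The summit of mRpS26 ranked 2843 (replicates 2695, 3140 and 3309), 129 bp from CG13698 and 559 bp from its own start. That of mRpS31 ranked 3021 (replicates 3214, 3049 and 3074), 207 bp from hzg and 664 bp from its own start. The weakest of the neighbour-side summits were those of mRpS23 at rank 6818, 78 bp from CenG1A, an Arf GTPase-activating protein gene, and of mRpS10 at rank 7359. The mRpS23 summit ranked 6621 and 6315 in replicates 1 and 2. In replicate 3 the peak there, of rank 6855, had its summit 147 bp from CenG1A, at the second mRpS23 site (rank 6902). The mRpS10 summit lay 139 bp from mRpS10 and 118 bp from Art3, an arginine methyltransferase gene. For mRpS10 no peak of replicate 1 held the summit, and the summit lay nearer to mRpS10 in replicate 2 and nearer to Art3 in replicate 3.

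Apart from mRpS14, the mitochondrial ribosomal protein genes with the nearest TSS had summits of low rank. The summit of mRpL49 at rank 4083 (X, summit 12906572) lay between genes, 533 bp from mRpL49 and 554 bp from CG4404, and ranked 4080, 4871 and 4361 in the replicates. That of mRpL16 at rank 7350 (X, summit 1890161) lay 95 bp upstream of mRpL16 and 211 bp from trr, which encodes a histone H3 lysine methyltransferase. Its replicate ranks were 8586, 7966 and 7038. Of the 26 summits at the 17 mitochondrial ribosomal protein genes, 25 lay upstream of the gene's TSS (96.2%), against 51.4% of all pairs of a gene and its summit. A summit counted for a gene through its divergent partner mostly lies upstream by position, so this share and the nearest-TSS count are views of one arrangement.

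Of the 30 summits at all 20 genes, 21 lay only inside transcripts of another gene, 12 of them in a 5′ UTR, 8 in an intron and 1 in a coding exon (of Snr1). A further 4 lay in the gene's own transcripts and 5 between genes. The 11 genes with 1 summit, the 8 with 2 and the single gene with 3, mRpL2, make up the 30.

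Complex I had 3 genes with a thresholded summit, and none ranked among the 1000 highest. ND-49, a core subunit near the ubiquinone site, ranked 1912 on chromosome 4 (summit 572183), with replicate ranks of 1967, 1815 and 2231. The summit lay 629 bp from ND-49 and 428 bp from Ephrin, an axon guidance ligand gene, within an Ephrin intron. ND-ACP, the mitochondrial acyl carrier protein, ranked 3555 (3L, summit 1330471) with replicate ranks of 3852, 3702 and 3688. Its summit lay inside the gene, 522 bp downstream of the start in its own intron and 1273 bp from msd1, an augmin subunit gene. ND-15 ranked 7764 (2L, summit 155435), with replicate ranks of 7396, 8772 and 10078. Its summit lay in its own 5′ UTR, 100 bp from 1 of its 3 start sites and 130 bp from the start of Pus10, a pseudouridine synthase gene. That start site lies inside the gene, whose 5′ end is far away at position 114726. Counting only the 5′ end of each gene left ND-15 out, with 2 complex I genes (5%), against 21.3% of all genes. At all 5 genes of the nearest-TSS count the summit was nearest to the gene in each of the 3 replicates, but at mRpS14, mRpL49 and ND-15 the distances to the starts of gene and neighbour differed by 30 bp or less.

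Of the 7 core complex I genes, ND-49 alone had a thresholded summit within 1 kb. ND-24, ND-51 and ND-30 had a summit only in the longer list called on the pooled replicates. ND-20, ND-23 and ND-75 had none within 1 kb in either list. The 6 paralogs, ND-20L, ND-24L, ND-49L, ND-51L1, ND-51L2 and ND-B14.5AL, had 0 thresholded summits, which with so few genes allows a share of up to 45.9% (exact 95% interval).

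The nearest summits beyond 1 kb show where the limit falls. The summit nearest to mRpL55 lay at 1084 bp (rank 4297), that of mRpL1 at 1328 bp (rank 5140) and that of ND-39 at 1418 bp (rank 5635). Those of ND-51L1 at 2066 bp (rank 362) and of mRpS7 at 2090 bp (rank 953) were stronger but more than 2 kb away. Just inside the limit were mRpS21 at 922 bp and mRpL3, whose highest summit lay at 920 bp.

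The pooled list, which holds 30000 summits and reaches much weaker peaks, gave a different picture for complex I. Within 1 kb it gave a summit to 49 of the 113 genes (43.4%), against 42.7% of all genes: 32 mitochondrial ribosomal protein genes (43.8%) and 17 complex I genes (42.5%). With the nearest TSS required, 22 genes were left (19.5%), against 35.7% of all genes. The mitochondrial ribosome had 7 of these (9.59%, interval 3.94 to 18.8%) and complex I had 15 (37.5%, interval 22.7 to 54.2%), while 40 of the 92 cytosolic ribosomal protein genes counted (43.5%). With the nearest TSS required, the mitochondrial ribosome thus stood below all genes in both lists, and complex I in the thresholded list. No difference between lists or groups was tested.

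**Figure D4:**
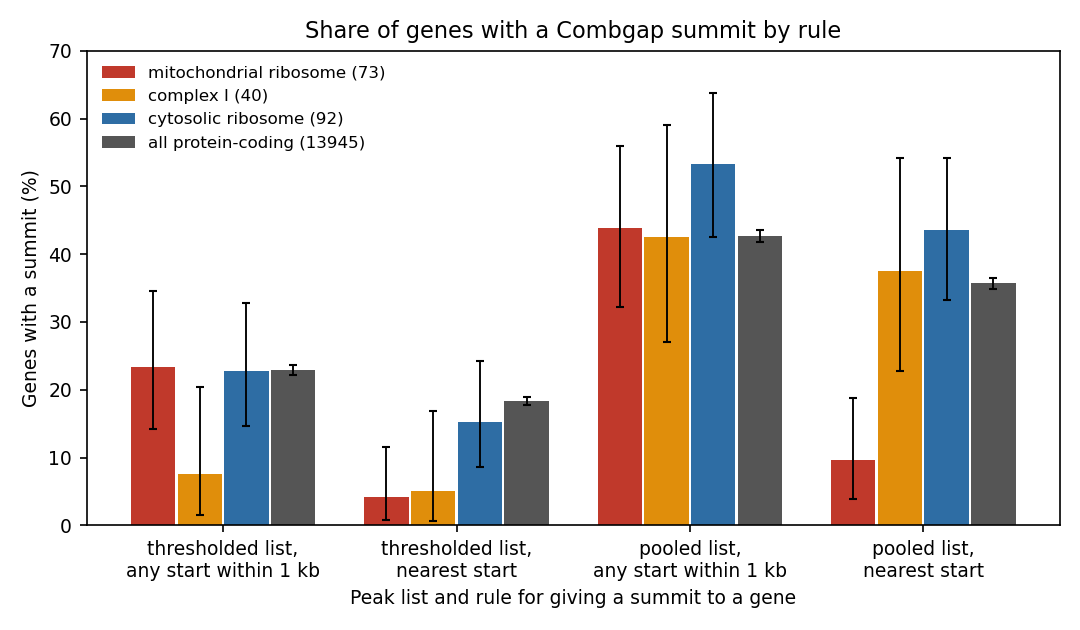
Share of genes (%) with a summit in the thresholded and the pooled list, counting any start site within 1 kb or the nearest start site only. Bars are the 4 gene groups with the number of genes in brackets, and whiskers are exact binomial 95% intervals. With the nearest start in the pooled list, the mitochondrial ribosome stands at 9.59%, complex I at 37.5% and all genes at 35.7%.

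Genes with a pooled but no thresholded summit numbered 29, of which 14 belonged to complex I. At these 14 the highest pooled summit lay at a median of 51.5 bp from the gene's own TSS, and in 9 of the 14 within 100 bp (64.3%), against 14 of 28 cytosolic ribosomal protein genes (50%, median 100 bp) and 34.5% of the 2758 protein-coding genes of this kind (median 176 bp). The 15 mitochondrial ribosomal protein genes of this kind had a median of 290 bp, with 2 of 15 within 100 bp (13.3%). The letters GTGTGT stood within 100 bp at 1 of the 14 complex I genes (7.14%) and 3 of the 15 mitochondrial ribosomal protein genes (20%), against 21.1% of all. The X chromosome held 7 of the 14, or 50%, against 26.5% of all. A peak of all 3 replicate lists held the summit at 9 of the 14 and at 9 of the 15.

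The highest of these weak peaks was that of mRpS11 at pooled rank 8888, 16 bp from its start and 41 bp from that of Ns1, with replicate ranks of 9350, 9452 and 10045. ND-B14.5A, an accessory subunit, followed at 9100, 19 bp from its start with the nearest other start, that of Cyp4d14, 2770 bp away. It ranked 9214, 9388 and 11528 in the replicates. At mRpS7 (rank 9330) the summit lay 387 bp from the cell-cycle kinase gene Cdk1 and 787 bp from its own start. At mRpL55 (rank 9500) it lay 14 bp from ATPsynD, an ATP synthase subunit gene, and 109 bp from its own start. ND-24 at rank 9725 had its summit 113 bp downstream of its start. All 29 ranked between 8888 and 28157 with a median of 16271, and 64 of the 113 genes had no summit within 1 kb in either list.

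On the X chromosome 16 of 20 members had a pooled summit (80%), against 63.4% of all X genes, while 4 of 20 had a thresholded one (20%), against 30.1%. All 4 were mitochondrial ribosomal protein genes (mRpS14, mRpL3, mRpL49 and mRpL16), and 3 of them were among the 5 genes with the nearest TSS. The 9 complex I genes on X had 0 thresholded summits.

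The promoters of the 113 genes were taken from 250 bp before to 50 bp after the gene's 5′ end. For ND-15 this is not the start site near its summit. GTGTGT was in 10.6% of them, against 15.7% of all promoters, and GAGAG in 15.9%, against 29.7%. Cytosolic ribosomal protein promoters held GTGTGT in 15.2% and GAGAG in 17.4%. The DRE, TATCGATA, bound by Dref, was in 21 of 113 (18.6%), against 30.4% of cytosolic ribosomal protein promoters and 9.36% of all. The core of Motif 1, GGTCACAC, an element of housekeeping promoters, was in 13.3%, against 7.7% of all. The cores sought for NRF-1 (CGCATGCG) and Ets factors (CCGGAAG), which are known from mammals to act at respiratory genes, were in 0 of 113, against 0.624% and 1.09% of all promoters. The TATA letters TATAAA were in 52.2%, against 45.8% of all. They were in 30% of the 20 genes with a thresholded summit (interval 11.9 to 54.3%). Of the 93 without, 57% had them (interval 46.3 to 67.2%), and these intervals overlap. By group, TATAAA was in 46.6% of mitochondrial ribosomal protein promoters and 62.5% of complex I promoters. Since 17 of the 20 genes belong to the mitochondrial ribosome, group and summit are not separated here. Both strands were searched, and letters can overlap, since GGTCACAC ends in CACAC, which can form part of a GT run. The share of promoters with a DRE was 25% at the 20 genes with a thresholded summit (interval 8.66 to 49.1%). It was 17.2% at the 93 without (interval 10.2 to 26.4%), and these intervals overlap too.

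Other nuclear genes for mitochondrial proteins were counted in the same way on smaller lists. Of complexes II to V, 11 of 35 genes had a thresholded summit within 1 kb (31.4%, interval 16.9 to 49.3%), and 5 had the nearest TSS. ATP synthase (complex V) gave 6 of 13, led by ATPsynE at rank 115, ATPsyngamma at 422, ATPsynG at 809 and ATPsynC at 906, but only 1 of the 6, ATPsynC, had the nearest TSS. Complex IV gave 3 of 9, namely cype at rank 1028, COX7C at 1382 and COX6B at 1769. Complex III gave 2 of 9, UQCR-C1 at rank 1310 and Cyt-c1 at 1992, and complex II gave 0 of 4.

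The lists for mitochondrial gene expression and import were short, and the exact 95% interval of each covers the 22.9% of all genes. Of the 2 mitochondrial ribosomal protein genes with other symbols, tko had a summit (rank 7861, 39 bp from its start) and bonsai had none. Aminoacyl-tRNA synthetases gave 1 of 15, AspRS-m at rank 270 and 70 bp from its start. Translation factors gave 1 of 7 (mEFTu1, rank 1929) and the list for transcription and upkeep of mitochondrial DNA 1 of 11 (mtSSB, the single-stranded DNA binding protein, rank 2975). Protein import gave 3 of 13, Tom20 at rank 2261, Tom7 at 4076 and Tim9a at 5739. The highest cytosolic ribosomal protein genes were RpS19a at rank 89, RpS28a at 354, RpS5a at 389 and RpS14b at 428.

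Of the genes for regulators of mitochondrial and ribosomal genes, 7 of 9 had a summit (77.8%, interval 40 to 97.2%). In 6 of the 9 their own TSS was nearest, and of the 7 with a summit only ERR was left out. The highest ranks were those of the nuclear receptor gene ERR at 151, the stress-response factor gene cnc at 306 and crc, the ATF4 homologue, at 643. The NRF-1 homologue ewg ranked 1016, the PGC-1 homologue srl 1166, the forkhead factor gene foxo 1896 and Myc 6769. Ets97D, the homologue of the GABP alpha subunit, and Dref had none. The list is short and was chosen with earlier results of these data known, so it is given as a count beside the 22.9% of all genes. It was not matched for the number of start sites. Of all genes with 2 or 3 TSSs 40.3% had a summit, and of those with 4 or more 78%.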

How the data were processed

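Peak lists from 3 biological replicates of 1 group were analysed. Per the deposited text listings, the authors called peaks on dm6 for each replicate and for the pooled alignments, each against 1 shared control alignment, and thresholded them by IDR. Which aligner, caller, IDR cut-off and control library were used is not given in the sources used here. Peak signal was deposited as the authors' caller gave it and was used as a rank within a list, because its scale differs between lists. The −log10 q values deposited by the authors (so read by column convention) were not used. Read counts and the depth of each library are unknown, so a missing peak may reflect depth. Summit offsets were deposited in bp from the peak start. Each replicate list and the pooled list held exactly 30000 peaks, which looks like a cap.

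Start sites came from Ensembl release 115 (BDGP6.54), 19252 for protein-coding genes, and sequence from RefSeq's release 6 assembly. All 113 members have an ATG at an annotated coding start there, and 8 listed symbols of other gene lists matched no gene. Named were all members with a thresholded summit and their neighbours, core complex I genes, up to 5 members just beyond 1 kb, up to 5 with the highest pooled summit only, up to 4 per other list and the regulators. The members and lists were chosen with earlier results of these data known. With 1 group no test was made. Shares carry exact (Clopper-Pearson) 95% intervals for counting error, and an SD is over replicates. Alternatives were other distances, lists, windows, letters, nearest-TSS rules and replicates left out. The pairing of summits with start sites and a search for planted GTGTGT were tested on simulated data, and the other steps were not. Tools were matplotlib 3.10.9, pandas 2.3.3, scipy 1.17.1, numpy 2.4.6 and Python 3.11.15.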

Additional observations from a re-analysis of the deposited data

How the results depend on the processing

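The count of members with a thresholded summit was 20 at 1 kb and moved to 10 at 500 bp, 47 at 5 kb, 49 in the pooled list and 5 with the nearest TSS only. It was 12 where at least 0.5 of the peak's length had to overlap one of the 5000 highest of every replicate. For the mitochondrial ribosome (17) the same settings gave 9, 34, 32, 3 and 10, and for complex I (3) the first 3 gave 1, 13 and 17. Alternatives chosen after seeing the data gave 8 members and 6 mitochondrial ribosomal protein genes where a TSS up to 100 bp farther than the nearest also counted. With the nearest TSS and 1 TSS per gene they gave 5 members, 4 mitochondrial ribosomal protein genes and 1 complex I gene. Peaks overlapping one of the 5000 highest of every replicate by at least 1 bp left 16 members, 14 mitochondrial ribosomal protein genes and 2 complex I genes. Under that filter, leaving out each replicate in turn moved nothing (16 to 16, 14 to 14 and 2 to 2). The thresholded list still came from all 3 replicates, so these counts could not fall and cannot show dependence on 1 replicate. The share of member summits with GTGTGT (63.3%) was 33.3% within 50 bp, 93.3% for GTGT, 36.7% for GTGTGTGT and 36.4% in the pooled list, where all start-site summits stood at 42.9%, 92.9%, 39.2% and 39.0%. The median rank (2522) was 4262 at 500 bp and 4083 with the nearest TSS only, and 2470 to 2616 by mean replicate rank with a replicate left out, over the 19 genes with a peak in all 3 lists (without mRpS10). Wider or narrower distances count more or fewer genes by construction, and other causes were not tested. No paired analysis was possible because the labels give 1 group. Read depth is unknown, so a missing peak is not shown to be missing binding.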
